A study of Mus musculus with 11 samples.

Results

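Mitosis and chromosome segregation genes were followed in mouse erythroid progenitors and in splenic dendritic cells (DC) that carried or lacked Zbtb46. The set held 47 genes chosen by name for their roles in mitosis, with earlier results of these data known. The shares of all genes set beside its counts therefore describe the set and do not test it. All 47 were found among the 19933 genes that had at least 1 probe set with a single gene symbol on the array. Where a gene had several probe sets, the brightest over the 11 arrays was read, which applied only to Top2a. RNA was hybridised to Affymetrix arrays from mice of the C57Bl/6 background at steady state. WT mice had the genotype Zbtb46+/+, Het mice Zbtb46 gfp/+, and KO mice Zbtb46gfp/gfp, with gfp on both alleles. Bone marrow of each genotype gave CFU-E cells and their forerunners Pre MegE and Pre CFU-E, and the spleens of WT and KO mice gave CD4+ DC. All 3 progenitor gates required CD117 and excluded lineage markers, CD41 and CD16/32. Pre MegE cells had CD150 without CD105, Pre CFU-E cells had CD150 with low CD105, and CFU-E cells had CD105 without CD150. The DC gate took CD11c+ MHCII+ CD172+ CD11b+ CD4+ cells that lacked B220 and CD8. None of the gate proteins is encoded by a gene of the set. Each genotype and cell type had 1 array, 11 in all, so that the genotypes served as the replicates of a stage (n = 3 arrays) and a single pair of arrays compared KO with WT in DC. The age and number of mice behind an array, and whether 1 mouse gave cells of several stages, are not given in these sources. The p-values therefore measure the spread between these arrays, which may be partly technical.

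Mitosis begins when cyclin-bound Cdk1 becomes active. Condensins compact the chromosomes, kinesins and spindle proteins build the spindle, kinetochores attach chromosomes to it, and the spindle checkpoint holds back the anaphase-promoting complex until every chromosome is attached. Separase then frees the sister chromatids, and the contractile ring divides the cell. Most of these genes are transcribed late in the cell cycle, and their promoters are known for a cell cycle genes homology region (CHR), bound by MuvB complexes with B-Myb and FoxM1, and for CCAAT boxes, bound by NF-Y. CFU-E are fast-dividing cells of the red cell lineage, whereas splenic classical DC descend from dividing precursors and are mostly out of cycle, with a minority that still divide.

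Promoter sequences are shown because all 47 genes rose from Pre MegE to CFU-E and were lower in DC. Whether the promoters had a part in this was not tested. RefSeq windows (GRCm38.p6, from 250 bases before to 50 bases after the annotated gene start) were matched for 41 of the 47 genes by symbol. No window was at hand for Ccna2, Aurkb, Incenp, Kif20a, Tpx2 and Smc4. The 120 bases just before the start of 6 genes with both elements follow, 5′ to 3′ on the gene's strand, with TTTGAA (the CHR core) and CCAAT in capitals on either strand, so that TTCAAA and ATTGG mark the reverse orientation. They lie at chr10:69352913-69353032 on the minus strand for Cdk1, chr5:123749606-123749725 on the plus strand for Kntc1, chr2:164769809-164769928 on the plus strand for Ube2c, chr19:37376262-37376381 on the plus strand for Kif11, chr7:127042421-127042540 on the minus strand for Kif22, and chr11:99024190-99024309 on the minus strand for Top2a. In Kntc1 the CCAAT and the TTCAAA share 1 base. The 6 genes were those with both elements in this stretch, TTTGAA within 60 bases of the start, and a call in the KO comparison below. Only the first window of a gene was read for this. Prc1 met the rule in a further window alone and was not printed. Cdc20 and Espl1 also have both elements there but were not called in that comparison.
Cdk1: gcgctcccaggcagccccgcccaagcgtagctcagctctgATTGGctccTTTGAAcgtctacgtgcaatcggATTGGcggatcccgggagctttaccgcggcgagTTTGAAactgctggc
Kntc1: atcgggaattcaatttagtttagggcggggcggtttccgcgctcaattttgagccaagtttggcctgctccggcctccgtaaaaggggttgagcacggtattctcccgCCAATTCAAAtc
Ube2c: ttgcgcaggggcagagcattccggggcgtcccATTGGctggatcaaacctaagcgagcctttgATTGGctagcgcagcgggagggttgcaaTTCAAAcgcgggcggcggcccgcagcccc
Kif11: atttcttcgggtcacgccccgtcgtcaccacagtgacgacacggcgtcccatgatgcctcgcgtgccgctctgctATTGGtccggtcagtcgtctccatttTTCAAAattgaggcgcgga
Kif22: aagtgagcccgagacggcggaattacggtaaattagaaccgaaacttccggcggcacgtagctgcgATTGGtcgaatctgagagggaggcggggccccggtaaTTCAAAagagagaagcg
Top2a: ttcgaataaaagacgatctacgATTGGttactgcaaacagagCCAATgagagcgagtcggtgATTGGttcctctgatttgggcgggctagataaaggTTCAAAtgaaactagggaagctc

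For the CHR the strings TTTGAA and TTTAAA were searched. The CCAAT box was searched as such, E2F sites as TTCCCGC, as TTGGCGC and also as TTCGCGC, and the TATA box as TATAAA, each on both strands. TTTGAA stood in the windows of 33 of 41 genes (80.5%), against 20.2% of all 27025 genes with a window and 13.8% of the 8643 tested genes with one. CCAAT stood in 73.2%, against 41.1% of all genes and 42.9% of tested genes. Both strings together were found in 28 of 41 genes (68.3%), against 8.97% and 6.94%. The TTTGAA matches lay near the start. In 25 of the 41 genes (61%) at least 1 began between 50 bases before and 25 bases after it, against 4.71% of all genes. TTTAAA was found in 22% of the set, 14.9% of all genes and 10.3% of tested genes, and TATAAA in 2.44%, 15.7% and 8.24%. Of the E2F strings, TTGGCGC was found in 14.6% of the set, 2.85% of all genes and 5.15% of tested genes. TTCCCGC was found in 4.88%, 5.29% and 10.1% of them, and TTCGCGC in 4.88%, 1.81% and 3.78%. Other mitosis genes with a window, 97 in number, had TTTGAA in 39.2%, CCAAT in 58.8% and both in 25.8%. A list of 41 DNA replication genes, added after the values were seen and with 32 windows, had TTTGAA in 12.5%, CCAAT in 59.4%, both in 9.38% and TTCCCGC in 40.6%. These are descriptions of letters in a window, without a test.

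**Figure D1:**
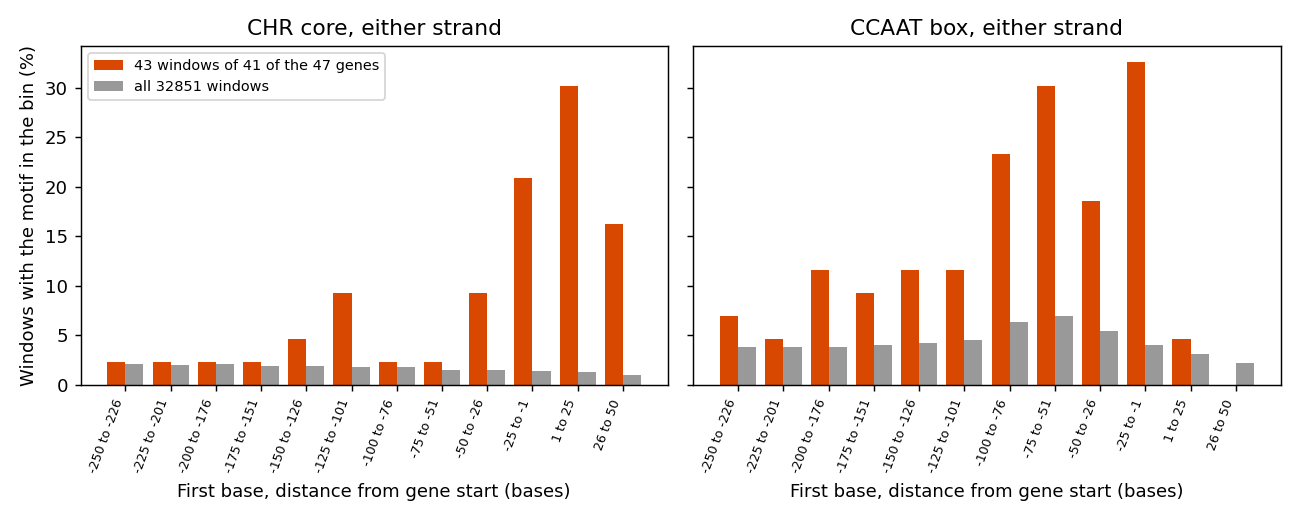
Share of promoter windows (%) whose CHR core TTTGAA (left) or CCAAT box (right) begins in each bin of 25 bases, by distance from the gene start, for the 43 windows of 41 mitosis genes (orange) and all 32851 windows (grey). The CHR core of the mitosis genes gathers around the gene start and the CCAAT box in the bins before it, and the grey bars are lower in those bins.

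The window held none of the 7 strings in 4 genes, Melk, Mad2l1, Nusap1 and Nuf2. The 120 bases before the start of 3 of them are printed for contrast, from chr4:44300797-44300916 on the plus strand for Melk, chr6:66535101-66535220 on the plus strand for Mad2l1, and chr2:119618178-119618297 on the plus strand for Nusap1. Nuf2 was left out because it was not called in the KO comparison below. The 3 printed genes rose with the rest over the progenitor stages, by 0.94, 0.51 and 0.32 on the log2 scale. The absence of the letters from this window says nothing of the factors that may bind elsewhere.
Melk: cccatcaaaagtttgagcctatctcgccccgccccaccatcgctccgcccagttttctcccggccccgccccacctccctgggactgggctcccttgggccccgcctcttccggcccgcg
Mad2l1: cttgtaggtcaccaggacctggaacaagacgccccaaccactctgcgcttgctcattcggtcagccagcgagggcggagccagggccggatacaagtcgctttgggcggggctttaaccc
Nusap1: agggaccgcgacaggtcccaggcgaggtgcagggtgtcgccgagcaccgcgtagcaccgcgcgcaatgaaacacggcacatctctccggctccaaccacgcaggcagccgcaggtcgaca

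The deposited intensities were read as log2 values. The median intensity was between 195.65 and 218.37 in all 11 arrays, but the upper quartile was 641.43 and 604.76 in WT and KO DC against 967.58 to 1009.3 in progenitors, and whether the DC arrays were normalised together with the progenitors was not stated. Zbtb46, read as the targeted gene, was at 9.67 in WT and 8.02 in KO DC. DC arrays carried their defining markers, with all 6 classical DC genes and all 4 genes of the CD4+ subset above the array median, while the 4 granulocyte markers lay below it in both. The 5 macrophage and 3 plasmacytoid DC markers were also at or above it in both arrays. Of 12 red pulp macrophage genes, chosen after the values were seen, 12 were in WT DC and 11 in KO DC. The erythroid progenitor list averaged 11.14 to 12.06 in progenitors and 7.96 and 8.07 in WT and KO DC. The granulocyte list averaged 10.60 to 12.03 in progenitors. Each of its genes was lower in CFU-E than in Pre MegE of the same genotype, with Mpo at 12.61 in WT Pre MegE and 11.52 in WT CFU-E. Arrays of the progenitors shared identical values between genotypes for 689 to 1674 of 19933 genes in a pair, against 17 in the DC pair. Among the mitosis genes, Prc1 and Hmmr had 1 value in all 3 Pre CFU-E arrays, and 6 more had the WT value in 1 other Pre CFU-E array. Such ties narrow the spread that the tests use.

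The first question was how the mitosis program changed along the erythroid path. All 47 genes rose from Pre MegE to CFU-E (limma, adjusted p under 0.05), against 41.5% of the 10701 genes tested that were higher and 35.1% that were lower, with a median rise of 0.84 on the log2 scale against 0.05 over all genes. The rises ran from 0.14 for Mki67 to 1.36 for Hmmr, and 17 genes rose by at least 2-fold. In all 47 genes every CFU-E array lay above every Pre MegE array. With arrays centred on their medians, the all-gene median moved from 0.05 to 0.17 and that of the set from 0.84 to 0.96, and the background of higher genes from 41.5% to 53.2%. At the first step, to Pre CFU-E, 45 of 47 genes rose (37.1% of all genes were higher and 29.3% lower, 47.1% after centring), with a median of 0.63 against 0.04 over all genes. The exceptions were Ncapd2 at 0.08 (SE 0.0506, adjusted p = 0.186) and Mki67 at 0.09 (SE 0.0554, adjusted p = 0.19). From Pre CFU-E to CFU-E 32 of 47 rose and 0 fell (18.7% of all genes were higher and 25.3% lower, 23.4% and 21.6% after centring), with a median of 0.24 against -0.01 over all genes. The first step was the larger for 43 genes, and 31 genes rose at both steps. Leaving out 1 array gave 23 to 32 genes higher at the later step, the lowest without the WT CFU-E array. There the calls of Bub1b, Cdca8, Cenpa, Cenpf, Kif15, Kif22, Melk, Ncapd2, Nuf2, Smc2, Smc4 and Spc25 each needed at least 1 single array (adjusted p from 0.0505 to 0.208 without it), as did that of Smc4 at the first step (0.0739 to 0.0882 without WT Pre MegE, WT Pre CFU-E or KO Pre CFU-E). These are sorted populations, so more cells in mitosis and more RNA per cell cannot be told apart. The granulocyte markers fell over the same stages, and their part in the rise was not tested.

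**Figure D2:**
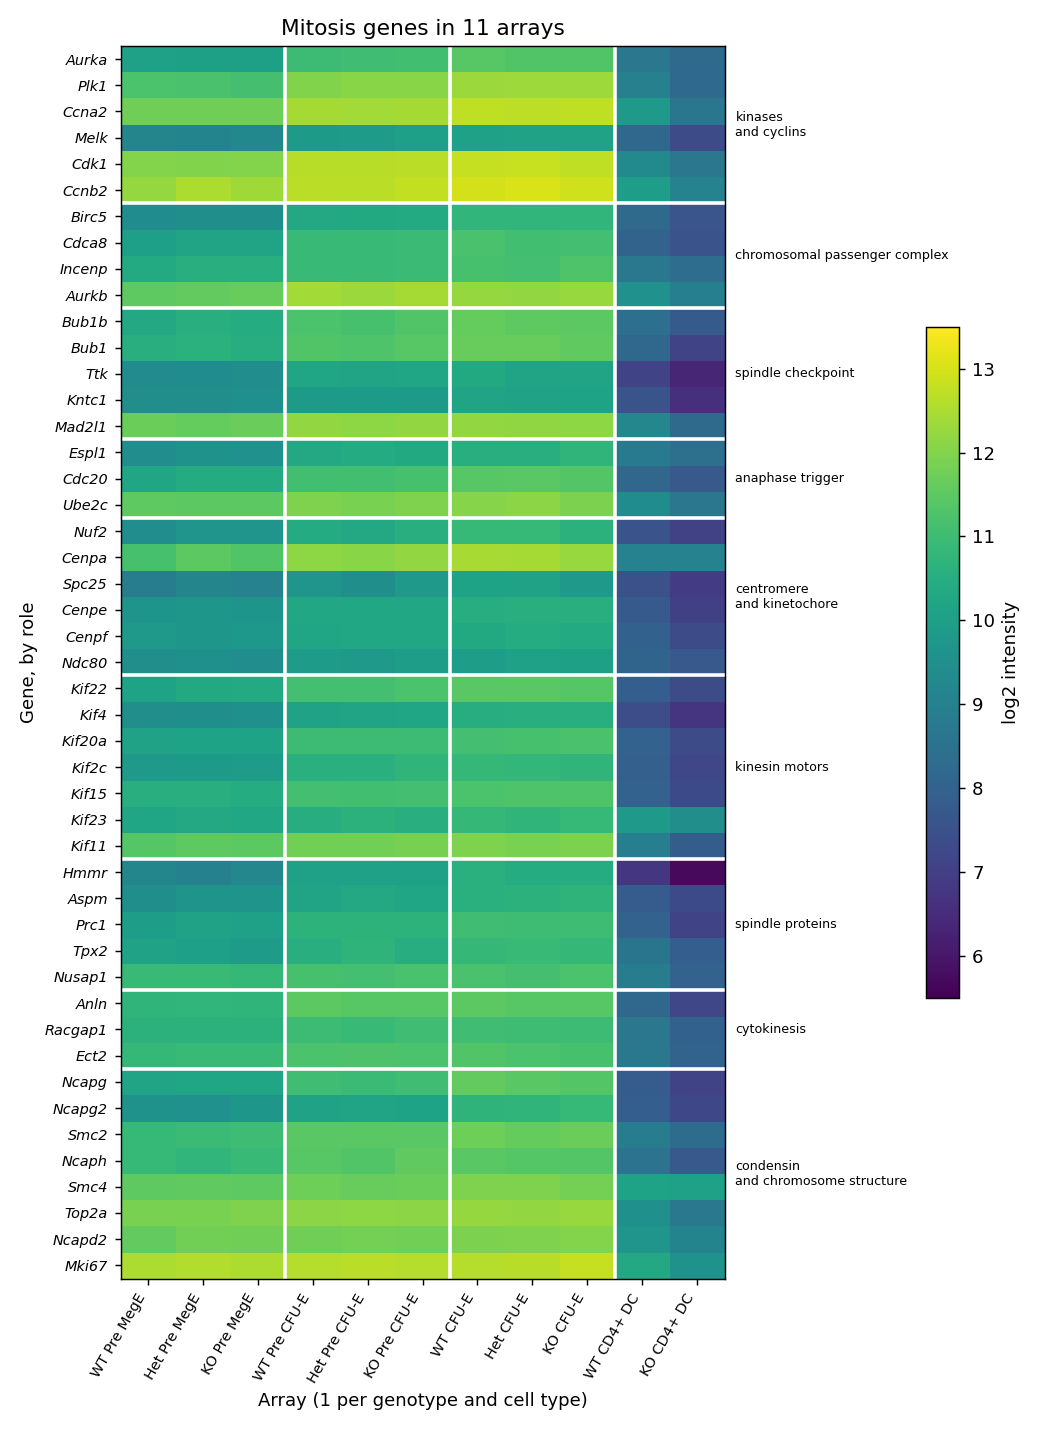
Log2 intensity (colour) of the 47 genes (rows, grouped by role) in the 11 arrays (columns, 1 per genotype and cell type). Within every role the colour brightens from Pre MegE to CFU-E and is dark in both DC arrays, darker in KO DC for most genes.

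Values at each stage are given in the order WT, Het and KO. Probe sets differ in brightness, so a level is compared between arrays and not between genes. Among the kinases and cyclins that start mitosis, all 6 genes rose at the first step and 5 of 6 at the later one. Aurka, the centrosome kinase, read 10.09, 10.04 and 10.05 at Pre MegE, 10.98, 11.05 and 11.07 at Pre CFU-E, and 11.42, 11.34 and 11.33 at CFU-E. It rose by 1.30 (SE 0.0499, 2.47-fold, adjusted p = 1.63e-08) over the span, the most of this group, and the 3 stages did not overlap. Plk1, the polo kinase of spindle assembly, read 11.25, 11.21 and 11.14 at Pre MegE, 11.97, 12.08 and 12.08 at Pre CFU-E, and 12.31, 12.33 and 12.34 at CFU-E. Ccna2, which encodes cyclin A2, read 11.78, 11.76 and 11.77 at Pre MegE, 12.42, 12.39 and 12.44 at Pre CFU-E, and 12.72, 12.69 and 12.73 at CFU-E. Cdk1, the kinase that drives mitotic entry, read 12.03, 12.00 and 12.01 at Pre MegE, 12.65, 12.65 and 12.67 at Pre CFU-E, and 12.80, 12.84 and 12.73 at CFU-E. Its later step was 0.13 (SE 0.048, adjusted p = 0.052) and did not pass, although every CFU-E array lay above every Pre CFU-E array. Melk, a cell cycle-regulated kinase, read 9.15, 9.10 and 9.23 at Pre MegE, 9.87, 9.88 and 10.02 at Pre CFU-E, and 10.08, 10.11 and 10.11 at CFU-E. Ccnb2, which encodes the Cdk1 partner cyclin B2, read 12.23, 12.51 and 12.36 at Pre MegE, 12.66, 12.67 and 12.76 at Pre CFU-E, and 12.99, 13.06 and 12.92 at CFU-E, and had the smallest span difference of the group, 0.62 (SE 0.0654, adjusted p = 1.61e-05).

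The chromosomal passenger complex corrects faulty attachments and then guides cytokinesis. All 4 subunits rose at the first step, and 3 of 4 at the later one. Birc5, which encodes survivin, read 9.40, 9.49 and 9.49 at Pre MegE, 10.33, 10.35 and 10.38 at Pre CFU-E, and 10.77, 10.77 and 10.76 at CFU-E, and rose by 1.31 (SE 0.046, 2.47-fold, adjusted p = 9.95e-09) over the span. Cdca8, which encodes borealin, read 10.01, 10.19 and 10.17 at Pre MegE, 10.92, 10.89 and 10.94 at Pre CFU-E, and 11.19, 11.07 and 11.10 at CFU-E. Incenp, the scaffold subunit, read 10.41, 10.50 and 10.50 at Pre MegE, 10.88, 10.93 and 10.94 at Pre CFU-E, and 11.16, 11.11 and 11.29 at CFU-E. The kinase subunit Aurkb read 11.50, 11.59 and 11.63 at Pre MegE, 12.40, 12.29 and 12.42 at Pre CFU-E, and 12.23, 12.22 and 12.27 at CFU-E. The mean of Aurkb was 12.37 ± 0.07 (SD, n = 3) at Pre CFU-E and 12.24 ± 0.03 (SD, n = 3) at CFU-E. Its later step was -0.13 (SE 0.0511, adjusted p = 0.0736), which did not pass, and it was called lower under 2 of the alternative settings, quantile normalisation (-0.14, adjusted p = 0.0347) and a trended, robust variance (adjusted p = 0.0485). Over the span it rose by 0.67 (SE 0.0511, adjusted p = 1.71e-06), the least of the 4.

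The spindle checkpoint delays anaphase while chromosomes are unattached. All 5 of its genes rose at the first step and 3 of 5 at the later one. Bub1b, which encodes the checkpoint protein BubR1, read 10.33, 10.55 and 10.46 at Pre MegE, 11.24, 11.17 and 11.33 at Pre CFU-E, and 11.60, 11.50 and 11.48 at CFU-E, and had the largest span difference here, 1.08 (SE 0.0706, 2.12-fold, adjusted p = 5.77e-07). Bub1, the kinetochore kinase, read 10.54, 10.61 and 10.49 at Pre MegE, 11.33, 11.30 and 11.42 at Pre CFU-E, and 11.63, 11.64 and 11.55 at CFU-E. Kntc1, a kinetochore recruiter of checkpoint proteins, read 9.44, 9.44 and 9.53 at Pre MegE, 9.87, 9.87 and 9.87 at Pre CFU-E, and 10.16, 10.10 and 10.15 at CFU-E. Ttk, the kinase that starts the checkpoint signal, read 9.35, 9.40 and 9.42 at Pre MegE, 10.21, 10.18 and 10.21 at Pre CFU-E, and 10.37, 10.19 and 10.18 at CFU-E, and its rise lay at the first step (0.81), with 0.05 (SE 0.0579, adjusted p = 0.554) at the later one. Mad2l1, which encodes the inhibitor of Cdc20, read 11.71, 11.59 and 11.67 at Pre MegE, 12.20, 12.16 and 12.22 at Pre CFU-E, and 12.20, 12.17 and 12.15 at CFU-E. It rose at the first step by 0.53 and stood at -0.02 (SE 0.0467, adjusted p = 0.779) at the later one, with overlapping arrays. Its span difference, 0.51, was the smallest of the 5.

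The anaphase trigger is the point at which sister chromatids are released. Cdc20 and Espl1 rose at both steps, and Ube2c at the first. Espl1, which encodes separase, read 9.44, 9.56 and 9.55 at Pre MegE, 10.33, 10.41 and 10.35 at Pre CFU-E, and 10.56, 10.54 and 10.74 at CFU-E, with the largest span difference of the 3, 1.10 (SE 0.058, 2.14-fold, adjusted p = 1.38e-07). Cdc20, the activator of the anaphase-promoting complex, read 10.23, 10.41 and 10.43 at Pre MegE, 11.09, 11.09 and 11.18 at Pre CFU-E, and 11.41, 11.45 and 11.35 at CFU-E. Ube2c, its ubiquitin-conjugating enzyme, read 11.51, 11.47 and 11.47 at Pre MegE, 11.97, 11.91 and 11.97 at Pre CFU-E, and 12.03, 12.10 and 11.93 at CFU-E. The later step of Ube2c was 0.08 (SE 0.0542, adjusted p = 0.289), and its KO CFU-E array lay below the KO and WT Pre CFU-E arrays.

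Centromere and kinetochore genes rose at the first step in 6 of 6 and at the later step in 5 of 6. Nuf2, a subunit of the microtubule-binding Ndc80 complex, read 9.43, 9.67 and 9.66 at Pre MegE, 10.43, 10.32 and 10.50 at Pre CFU-E, and 10.87, 10.87 and 10.64 at CFU-E, and rose most over the span, by 1.20 (SE 0.0908, 2.3-fold, adjusted p = 1.57e-06). Ndc80 itself read 9.45, 9.53 and 9.41 at Pre MegE, 9.88, 9.82 and 9.96 at Pre CFU-E, and 9.99, 10.09 and 10.04 at CFU-E, and rose least, by 0.57 (SE 0.0563, adjusted p = 9.98e-06). Spc25, from the same complex, read 8.89, 9.13 and 9.05 at Pre MegE, 9.68, 9.49 and 9.79 at Pre CFU-E, and 10.14, 10.12 and 9.82 at CFU-E, with an SD of 0.18 at CFU-E that was the widest of the set at any stage. Cenpa, the histone variant that marks centromeres, read 11.18, 11.49 and 11.32 at Pre MegE, 12.14, 12.07 and 12.21 at Pre CFU-E, and 12.46, 12.42 and 12.26 at CFU-E. Cenpe, a kinetochore motor, read 9.65, 9.73 and 9.65 at Pre MegE, 10.27, 10.30 and 10.27 at Pre CFU-E, and 10.50, 10.52 and 10.54 at CFU-E. Cenpf, a large protein of the outer kinetochore, read 9.79, 9.74 and 9.76 at Pre MegE, 10.20, 10.27 and 10.25 at Pre CFU-E, and 10.36, 10.45 and 10.38 at CFU-E. Both rose at each step.

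Of 7 kinesin motors all rose at the first step and 5 at the later one. Kif22, a chromokinesin that pushes chromosome arms, read 10.13, 10.37 and 10.39 at Pre MegE, 11.10, 11.11 and 11.22 at Pre CFU-E, and 11.45, 11.46 and 11.38 at CFU-E, and led the group with 1.13 (SE 0.0676, 2.19-fold, adjusted p = 3.17e-07). Kif4, also a chromokinesin, read 9.44, 9.47 and 9.51 at Pre MegE, 10.11, 10.18 and 10.20 at Pre CFU-E, and 10.49, 10.56 and 10.52 at CFU-E. Kif20a, a motor of cytokinesis, read 10.12, 10.13 and 10.13 at Pre MegE, 10.97, 10.97 and 10.98 at Pre CFU-E, and 11.11, 11.17 and 11.20 at CFU-E. Kif2c, which depolymerises microtubules, read 9.78, 9.87 and 9.91 at Pre MegE, 10.59, 10.59 and 10.74 at Pre CFU-E, and 10.82, 10.80 and 10.74 at CFU-E. Kif15, which helps to keep the spindle bipolar, read 10.50, 10.55 and 10.45 at Pre MegE, 11.12, 11.09 and 11.10 at Pre CFU-E, and 11.24, 11.29 and 11.31 at CFU-E. Kif23, the motor of centralspindlin, read 10.24, 10.33 and 10.29 at Pre MegE, 10.49, 10.63 and 10.50 at Pre CFU-E, and 10.82, 10.73 and 10.85 at CFU-E, and was 1 of 4 genes of the set with the larger difference at the later step (0.25 then 0.26). Kif11, the motor that separates spindle poles, read 11.40, 11.50 and 11.49 at Pre MegE, 11.80, 11.80 and 11.85 at Pre CFU-E, and 11.94, 11.90 and 11.92 at CFU-E, with the smallest span difference, 0.46 (SE 0.0478, adjusted p = 1.55e-05).

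Spindle proteins had the largest single rise of the set. All 5 rose at the first step and 4 at the later one. Hmmr, a spindle pole protein also known as a hyaluronan receptor, read 9.18, 9.02 and 9.20 at Pre MegE, 10.08, 10.08 and 10.08 at Pre CFU-E, and 10.56, 10.46 and 10.47 at CFU-E. It rose by 1.36 (SE 0.0538, 2.57-fold, adjusted p = 1.94e-08) over the span. Aspm, which acts at spindle poles, read 9.48, 9.65 and 9.63 at Pre MegE, 10.16, 10.32 and 10.21 at Pre CFU-E, and 10.56, 10.65 and 10.69 at CFU-E. Prc1, the crosslinker of midzone microtubules, read 9.96, 10.12 and 10.07 at Pre MegE, 10.67, 10.67 and 10.67 at Pre CFU-E, and 11.06, 11.02 and 11.003 at CFU-E. Tpx2, the activator of Aurora A, read 10.10, 10.02 and 9.90 at Pre MegE, 10.56, 10.70 and 10.48 at Pre CFU-E, and 10.84, 10.89 and 10.81 at CFU-E. Nusap1, a microtubule bundler, read 10.92, 10.89 and 10.83 at Pre MegE, 11.17, 11.12 and 11.19 at Pre CFU-E, and 11.20, 11.14 and 11.24 at CFU-E, with the smallest span difference here, 0.32 (SE 0.0495, adjusted p = 0.00024).

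All 3 cytokinesis genes rose at the first step, and 0 of 3 passed at the later one, where their differences were between -0.01 and 0.04. Anln, which encodes the ring scaffold anillin, read 10.73, 10.75 and 10.74 at Pre MegE, 11.48, 11.43 and 11.44 at Pre CFU-E, and 11.48, 11.41 and 11.42 at CFU-E. Its span difference was 0.70 (SE 0.0448, 1.62-fold, adjusted p = 5.18e-07). Racgap1, the partner of Kif23 in centralspindlin, read 10.63, 10.64 and 10.63 at Pre MegE, 10.99, 10.91 and 11.04 at Pre CFU-E, and 11.06, 11.01 and 10.98 at CFU-E. Ect2, the activator of RhoA at the ring, read 10.84, 10.89 and 10.90 at Pre MegE, 11.22, 11.26 and 11.22 at Pre CFU-E, and 11.33, 11.22 and 11.18 at CFU-E, with the smallest difference of the 3, 0.37 (SE 0.053, adjusted p = 0.000146).

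The 8 condensin and chromosome structure genes split. Over the span Ncapg and Ncapg2 rose by more than 2-fold, while Ncapd2 (1.18-fold), Smc4 (1.31-fold), Top2a (1.25-fold) and Mki67 (1.10-fold) rose less. Ncapg, a subunit of condensin I, read 10.17, 10.23 and 10.20 at Pre MegE, 11.03, 10.94 and 11.05 at Pre CFU-E, and 11.58, 11.46 and 11.37 at CFU-E, a span difference of 1.27 (SE 0.0617, 2.41-fold, adjusted p = 7.77e-08). Ncapg2, its counterpart in condensin II, read 9.61, 9.56 and 9.74 at Pre MegE, 10.12, 10.16 and 10.13 at Pre CFU-E, and 10.72, 10.72 and 10.85 at CFU-E, and had the largest later step of the set, 0.63 (SE 0.0525, adjusted p = 1.42e-05). Ncaph, the condensin I kleisin, read 10.86, 10.76 and 10.89 at Pre MegE, 11.44, 11.34 and 11.53 at Pre CFU-E, and 11.46, 11.39 and 11.35 at CFU-E, and did not pass at the later step (-0.04 (SE 0.0555, adjusted p = 0.633)). Ncapd2, of the same complex, read 11.59, 11.79 and 11.77 at Pre MegE, 11.77, 11.82 and 11.80 at Pre CFU-E, and 11.91, 11.96 and 12.01 at CFU-E. Smc2, a core ATPase of both condensins, read 10.85, 10.97 and 11.01 at Pre MegE, 11.46, 11.46 and 11.47 at Pre CFU-E, and 11.74, 11.60 and 11.70 at CFU-E. Its partner Smc4 read 11.51, 11.56 and 11.51 at Pre MegE, 11.73, 11.65 and 11.71 at Pre CFU-E, and 11.94, 11.97 and 11.83 at CFU-E. Top2a, which untangles DNA, read 11.89, 11.90 and 11.96 at Pre MegE, 12.12, 12.15 and 12.12 at Pre CFU-E, and 12.25, 12.21 and 12.25 at CFU-E. Mki67, which encodes the proliferation marker Ki-67, a coat of mitotic chromosomes, read 12.53, 12.57 and 12.52 at Pre MegE, 12.61, 12.66 and 12.61 at Pre CFU-E, and 12.62, 12.63 and 12.78 at CFU-E, the smallest span difference of the set. It was 0.14 (SE 0.0554, adjusted p = 0.0427), the call that was lost most often. It did not pass without any 1 of the WT Pre MegE, WT Pre CFU-E, WT CFU-E, Het Pre MegE, KO Pre MegE and KO CFU-E arrays (adjusted p from 0.0641 to 0.184) or after quantile normalisation (0.08, adjusted p = 0.291).

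**Figure D3:**
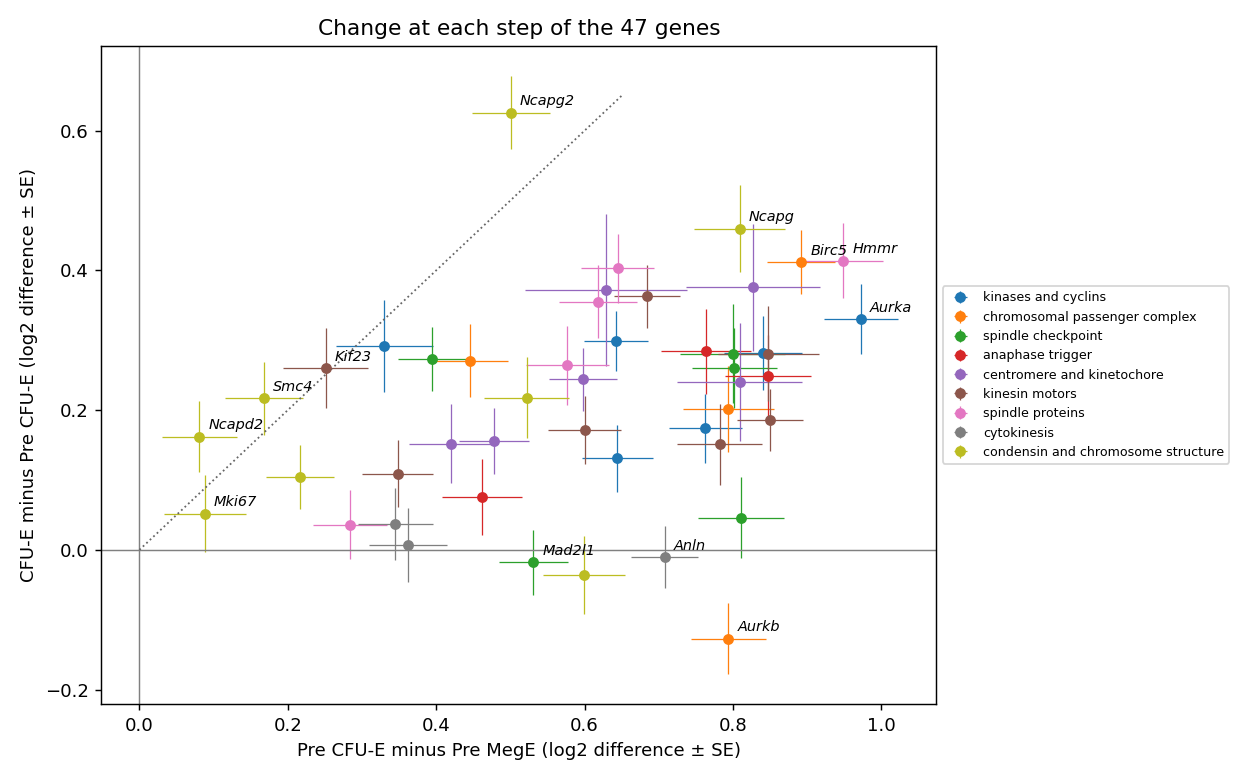
Log2 difference ± SE of each of the 47 genes at the first step (horizontal axis) and at the later step (vertical axis), coloured by role, with 3 arrays per stage; the dotted line marks equal steps. Most points lie right of the line and above 0, Ncapg2 lies above the line, and Aurkb is the lowest point.

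In each genotype taken alone every gene was higher in Pre CFU-E than in Pre MegE, with medians of 0.65 in WT, 0.60 in Het and 0.65 in KO. At the later step 46 of 47 genes were higher in WT (median 0.27), 43 in Het (0.22) and 39 in KO (0.16). With 1 array per genotype and stage these differences between genotypes have no test. Across the 47 genes the 2 steps had a Pearson r of 0.31, given as a description, since both use the Pre CFU-E arrays with opposite sign.

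No gene of the set was called between genotypes in progenitors. Averaged over stages, 0 of 47 were called between KO and WT (limma, 0 at an unadjusted p under 0.05), where 0.0187% of all genes were higher and 0.121% lower, and 0 of 47 between Het and WT (1 at an unadjusted p under 0.05), where 0.00934% were higher and 0.028% lower. The KO minus WT differences of the set had a median of 0.02 and ran from -0.10 to 0.11, and those of Het minus WT had a median of 0.02 and ran from -0.09 to 0.14. In single pairs of arrays the widest KO minus WT difference of any of the 47 genes was 0.32 in size, for Spc25 at CFU-E.

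CD4+ DC had far less of this RNA than progenitors. All 47 genes were lower in DC than in the mean of the 3 stages, against 64.6% of the 11560 genes tested that were lower, with a median difference of -2.85 against -0.59 over all genes. Kntc1, Ttk, Nuf2, Spc25, Kif4 and Hmmr, below the array median in both DC arrays, entered this test through their progenitor values. In all 47 both DC arrays lay below all 9 progenitor arrays, and 46 of 47 were at least 2-fold lower. Among the 26 genes that reached the array median in both DC arrays the largest differences were those of Cdk1, -3.49 (SE 0.11, 11.2-fold, adjusted p = 1.81e-10), Kif11 at -3.35 and Mad2l1 at -3.29. Hmmr at -3.70, Anln at -3.52 and Bub1 at -3.50 lay below that median in at least 1 DC array, so that their differences are lower bounds in size and have no rank. The smallest was that of Kif23, -0.91 (SE 0.0808, 1.87-fold, adjusted p = 9.12e-07), followed by Espl1 at -1.54, Smc4 at -1.59 and Ndc80 at -1.89. Against Pre MegE alone, the stage with the least of these RNAs, 47 of 47 were lower (65.7% of all genes), with a median of -2.39. Against Pre CFU-E 47 of 47 were lower (63.1% of all genes). Against CFU-E 47 of 47 were lower (61% of all genes), with a median of -3.21. Quantile normalisation of the 11 arrays moved the median of all genes from -0.59 to -0.10 and that of the 47 genes from -2.85 to -2.48. The background of lower genes went from 64.6% to 47.7%, and 47 of 47 stayed lower. Without the filter on low values 44.4% of all genes were lower and 33.5% higher, with a median of -0.07. There too 47 of 47 were lower. By role, the median difference ran from -2.58 for the chromosomal passenger complex to -3.21 for the spindle checkpoint.

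**Figure D4:**
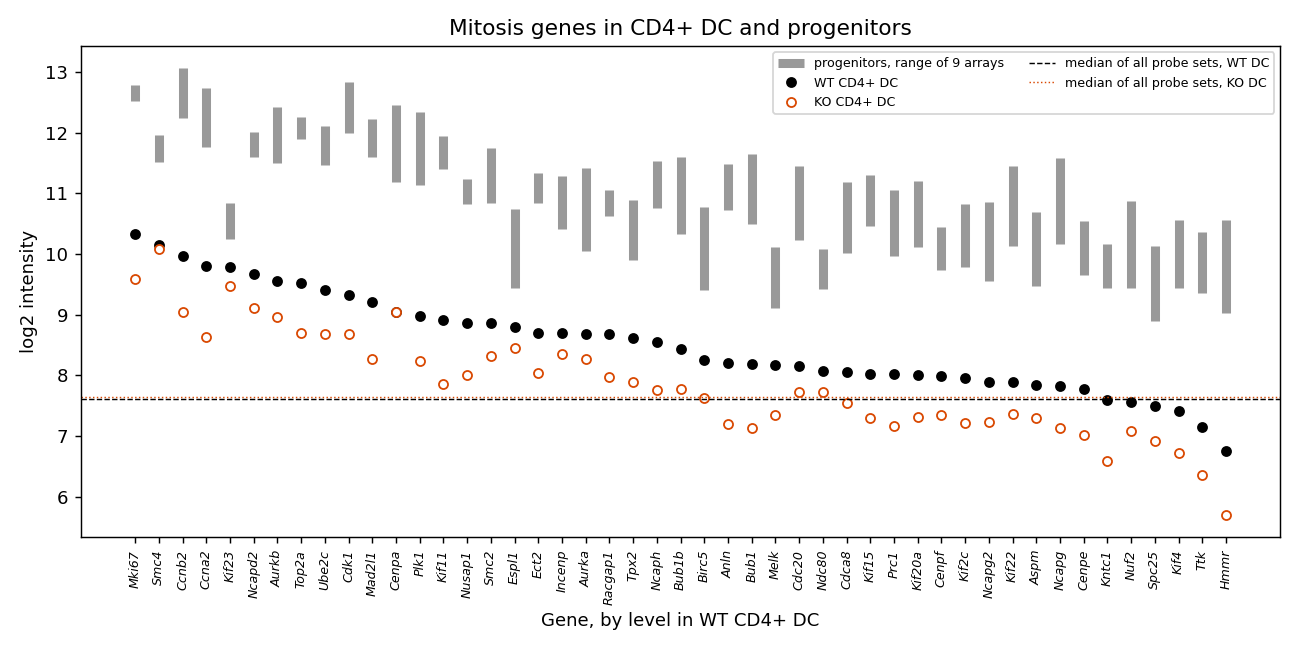
Log2 intensity of the 47 genes in WT (filled) and KO (open) CD4+ DC, 1 array each, with the range of the 9 progenitor arrays as grey bars and the array medians as lines; genes are sorted by WT DC only for display. Every DC point lies below its grey bar, and the KO points lie below the WT points, except that those of Cenpa and Smc4 are nearly level.

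Most of the set lay above the filter level in DC. At least at the array median, taken over all probe sets, were 41 genes in WT DC, 26 in KO DC, and 47 in every progenitor array. The 6 genes below it in WT DC were Kntc1, Nuf2, Spc25, Kif4, Ttk and Hmmr. For the 6 and 21 genes below the median in WT and KO DC, the difference from progenitors is best read as a lower bound on the fall.

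The KO effect was read next, in DC against progenitors. The KO DC value lay below the WT DC value in 46 of 47 genes and within 0.01 of it in Cenpa, with a median difference of -0.69 against -0.05 over the 10554 genes that reached the array median on either DC array, of which 38.8% were above 0. This is the difference of 1 array from 1 array, with no replicate check. Among those 10554 genes 1.77% were at least 1.5-fold lower and 0.758% higher, and 41 members were among them, of which 28 were at least 1.5-fold lower. The 6 members below the median in both DC arrays, Kntc1, Ttk, Nuf2, Spc25, Kif4 and Hmmr, are not in that count. To set it against a spread, a fit over all 11 arrays compared the KO effect in DC with that in progenitors, with the spread between progenitor arrays assumed to hold for DC as well. In that fit 37 of 47 genes had a lower KO effect in DC and 0 a higher one (limma, adjusted p under 0.05), where 3.01% of all genes were lower and 1.56% higher (5.38% and 4.44% after quantile normalisation, with 43 of 47 called). The DC pair was wider than the progenitor pairs whose spread it was given, with a median absolute deviation of 0.186 over all genes against 0.0694 to 0.147, so that the p-values may be too small. Of the 37, Kntc1, Ttk, Kif4 and Hmmr lay below the array median in both DC arrays and entered the test through their progenitor values. With the fit limited to genes that reached the median in at least 1 DC array, 35 of 41 members were called (3.23% of all genes lower), and in both DC arrays, 19 of 26 (2.53% lower), 2 filters chosen after seeing the data. The smallest difference called was 0.366 in size over all genes and 0.536 in the set, so a member that was not called is not shown to lack an effect. The median was -0.69 against -0.05 over all genes, and 45 of 47 had an unadjusted p under 0.05. In 45 of 47 genes the DC difference lay below the differences of all 3 stages. Leaving out 1 progenitor array gave 30 genes lower (without WT Pre CFU-E) to 42 (without KO CFU-E), and leaving out all genes with tied values gave 28 of the 39 that remained. The calls of Bub1b, Cdca8, Ect2, Kif22, Ncapg, Smc2 and Tpx2 were each lost without at least 1 array, with adjusted p from 0.0501 to 0.118.

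**Figure D5:**
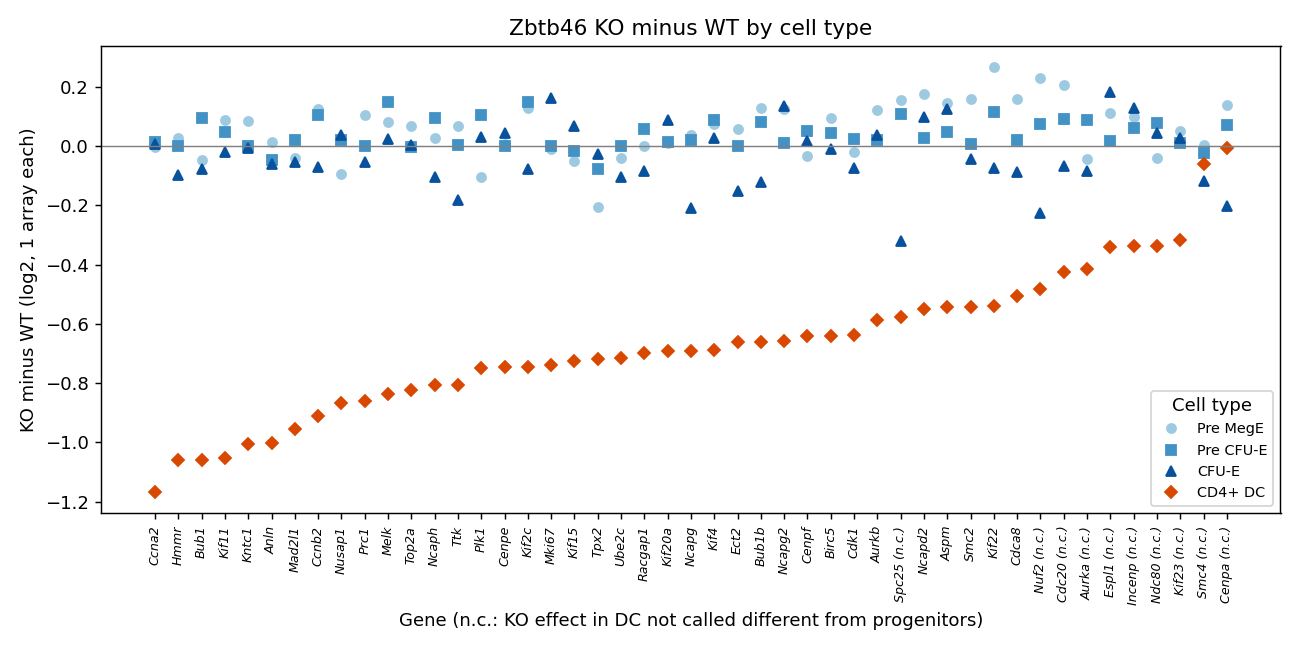
KO minus WT (log2) of the 47 genes in Pre MegE (light circles), Pre CFU-E (squares), CFU-E (triangles) and CD4+ DC (orange diamonds), from 1 array per genotype and cell type; genes marked n.c. were not called in the comparison of DC with progenitors. Progenitor points scatter around 0 within 0.32, and the DC points run from -1.17 for Ccna2 to -0.01 for Cenpa.

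Each gene's DC values follow, with its KO minus WT difference in DC beside those at the 3 stages in the order of the path. Among the kinases and cyclins 5 of 6 were called. Ccna2 read 9.80 in WT and 8.63 in KO DC, a difference of -1.17 against 0.00, 0.01 and 0.01 at the 3 stages, and its KO effect in DC minus that in progenitors was -1.17 (SE 0.0866, 2.26-fold, adjusted p = 0.00104). This was the largest measured difference of the set. Ccnb2 read 9.96 in WT and 9.05 in KO DC, a difference of -0.91 against 0.13, 0.11 and -0.07 at the 3 stages. Melk read 8.17 in WT and 7.34 in KO DC, a difference of -0.84 against 0.08, 0.15 and 0.03 at the 3 stages. Plk1 read 8.98 in WT and 8.23 in KO DC, a difference of -0.75 against -0.11, 0.11 and 0.03 at the 3 stages. Cdk1 read 9.32 in WT and 8.68 in KO DC, a difference of -0.64 against -0.02, 0.03 and -0.08 at the 3 stages. Aurka read 8.68 in WT and 8.27 in KO DC, a difference of -0.42 against -0.04, 0.09 and -0.08 at the 3 stages. Aurka was not called (-0.40 (SE 0.1, adjusted p = 0.0584)).

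In the chromosomal passenger complex 3 of 4 were called. Birc5 read 8.26 in WT and 7.62 in KO DC, a difference of -0.64 against 0.10, 0.05 and -0.01 at the 3 stages. Aurkb read 9.55 in WT and 8.97 in KO DC, a difference of -0.59 against 0.12, 0.02 and 0.04 at the 3 stages. Cdca8 read 8.05 in WT and 7.55 in KO DC, a difference of -0.51 against 0.16, 0.02 and -0.09 at the 3 stages. The scaffold had the smallest difference. Incenp read 8.69 in WT and 8.36 in KO DC, a difference of -0.34 against 0.10, 0.06 and 0.13 at the 3 stages. It was not called (-0.44 (SE 0.104, adjusted p = 0.0505)).

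All 5 spindle checkpoint genes were called, Kntc1 and Ttk from DC values below the array median. Bub1 read 8.19 in WT and 7.13 in KO DC, a difference of -1.06 against -0.05, 0.10 and -0.08 at the 3 stages, called at -1.05 (SE 0.115, adjusted p = 0.00277). Kntc1 read 7.59 in WT and 6.59 in KO DC, a difference of -1.004 against 0.08, 0.00 and -0.01 at the 3 stages. Mad2l1 read 9.22 in WT and 8.26 in KO DC, a difference of -0.95 against -0.04, 0.02 and -0.05 at the 3 stages. Mad2l1, above the array median in both DC arrays, was 1.94-fold lower in KO DC. Ttk read 7.15 in WT and 6.35 in KO DC, a difference of -0.81 against 0.07, 0.01 and -0.18 at the 3 stages. Bub1b read 8.43 in WT and 7.77 in KO DC, a difference of -0.66 against 0.13, 0.08 and -0.12 at the 3 stages.

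Of the anaphase trigger 1 of 3 genes was called. Ube2c read 9.40 in WT and 8.68 in KO DC, a difference of -0.71 against -0.04, 0.00 and -0.10 at the 3 stages, called at -0.67 (SE 0.109, adjusted p = 0.0126). Cdc20 read 8.15 in WT and 7.72 in KO DC, a difference of -0.42 against 0.21, 0.09 and -0.07 at the 3 stages. Espl1 read 8.79 in WT and 8.45 in KO DC, a difference of -0.34 against 0.11, 0.02 and 0.18 at the 3 stages. Cdc20 (adjusted p = 0.0536) and Espl1 (0.0678) did not pass.

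Of the centromere and kinetochore genes 2 of 6 were called. Cenpe read 7.77 in WT and 7.02 in KO DC, a difference of -0.75 against 0.01, 0.00 and 0.04 at the 3 stages. Cenpf read 7.99 in WT and 7.35 in KO DC, a difference of -0.64 against -0.03, 0.05 and 0.02 at the 3 stages. Both were called, at -0.76 (SE 0.0908, adjusted p = 0.00415) and -0.65 (SE 0.0955, adjusted p = 0.00824). Spc25 read 7.49 in WT and 6.91 in KO DC, a difference of -0.58 against 0.16, 0.11 and -0.32 at the 3 stages. Nuf2 read 7.56 in WT and 7.08 in KO DC, a difference of -0.48 against 0.23, 0.07 and -0.23 at the 3 stages. Ndc80 read 8.06 in WT and 7.73 in KO DC, a difference of -0.34 against -0.04, 0.08 and 0.05 at the 3 stages. The 3 subunits of the Ndc80 complex did not pass (adjusted p = 0.197, 0.164 and 0.114), and the SE was 0.218 for Spc25 and 0.182 for Nuf2. Cenpa read 9.05 in WT and 9.04 in KO DC, a difference of -0.01 against 0.14, 0.07 and -0.20 at the 3 stages. Cenpa had the same level in both DC arrays to within 0.01, and its test gave -0.01 (SE 0.169, adjusted p = 0.981).

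Of the kinesin motors 6 of 7 were called, Kif4 from DC values below the array median. Kif11 read 8.91 in WT and 7.86 in KO DC, a difference of -1.05 against 0.09, 0.05 and -0.02 at the 3 stages, called at -1.09 (SE 0.0958, adjusted p = 0.0016). Kif2c read 7.95 in WT and 7.21 in KO DC, a difference of -0.75 against 0.13, 0.15 and -0.08 at the 3 stages. Kif15 read 8.03 in WT and 7.30 in KO DC, a difference of -0.73 against -0.05, -0.02 and 0.07 at the 3 stages. Kif11 had the largest measured difference of the motors. Kif20a read 8.01 in WT and 7.32 in KO DC, a difference of -0.69 against 0.01, 0.01 and 0.09 at the 3 stages. Kif4 read 7.41 in WT and 6.72 in KO DC, a difference of -0.69 against 0.07, 0.09 and 0.03 at the 3 stages. Kif22 read 7.89 in WT and 7.35 in KO DC, a difference of -0.54 against 0.27, 0.12 and -0.07 at the 3 stages. The centralspindlin motor had the smallest. Kif23 read 9.78 in WT and 9.47 in KO DC, a difference of -0.32 against 0.05, 0.01 and 0.03 at the 3 stages. It was not called (-0.35 (SE 0.115, adjusted p = 0.138)).

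All 5 spindle proteins were called. Hmmr read 6.76 in WT and 5.70 in KO DC, a difference of -1.06 against 0.03, 0.00 and -0.10 at the 3 stages, called at -1.04 (SE 0.108, adjusted p = 0.00271). Nusap1 read 8.87 in WT and 8.002 in KO DC, a difference of -0.87 against -0.09, 0.02 and 0.04 at the 3 stages. Prc1 read 8.01 in WT and 7.16 in KO DC, a difference of -0.86 against 0.11, 0.00 and -0.05 at the 3 stages. Hmmr lay below the array median in both DC arrays, so its KO minus WT difference was read under the filter level. Tpx2 read 8.61 in WT and 7.90 in KO DC, a difference of -0.72 against -0.20, -0.08 and -0.03 at the 3 stages. Aspm read 7.84 in WT and 7.30 in KO DC, a difference of -0.54 against 0.15, 0.05 and 0.13 at the 3 stages.

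All 3 cytokinesis genes were called. Anln read 8.20 in WT and 7.20 in KO DC, a difference of -1.002 against 0.01, -0.05 and -0.06 at the 3 stages, called at -0.97 (SE 0.0899, adjusted p = 0.00179). Racgap1 read 8.67 in WT and 7.98 in KO DC, a difference of -0.70 against 0.00, 0.06 and -0.08 at the 3 stages. Ect2 read 8.70 in WT and 8.04 in KO DC, a difference of -0.66 against 0.06, 0.00 and -0.15 at the 3 stages. Anln had the largest measured difference of the 3.

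Of condensin and chromosome structure genes 7 of 8 were called. Top2a read 9.52 in WT and 8.70 in KO DC, a difference of -0.82 against 0.07, 0.00 and 0.00 at the 3 stages, called at -0.85 (SE 0.0918, adjusted p = 0.00277). Ncaph read 8.56 in WT and 7.75 in KO DC, a difference of -0.81 against 0.03, 0.10 and -0.10 at the 3 stages. Mki67 read 10.32 in WT and 9.58 in KO DC, a difference of -0.74 against -0.01, 0.00 and 0.16 at the 3 stages. Top2a has a further, dimmer probe set, on which the DC difference was -0.19. Ncapg read 7.83 in WT and 7.14 in KO DC, a difference of -0.69 against 0.04, 0.02 and -0.21 at the 3 stages. Ncapg2 read 7.90 in WT and 7.24 in KO DC, a difference of -0.66 against 0.13, 0.01 and 0.14 at the 3 stages. Ncapd2 read 9.66 in WT and 9.12 in KO DC, a difference of -0.55 against 0.18, 0.03 and 0.10 at the 3 stages. Smc2 and Smc4 form the ATPase core of both condensins. Smc2 read 8.86 in WT and 8.32 in KO DC, a difference of -0.54 against 0.16, 0.01 and -0.04 at the 3 stages. Smc4 read 10.14 in WT and 10.08 in KO DC, a difference of -0.06 against 0.00, -0.02 and -0.12 at the 3 stages. Smc2 was called (-0.58 (SE 0.116, adjusted p = 0.027)) and Smc4 was not (-0.02 (SE 0.105, adjusted p = 0.949)). The difference between those genes was not tested.

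The 2 DC arrays differed more from each other than progenitor arrays of a stage did. At least 1.5-fold apart were 2.53% of genes in the DC pair, against 0.0587% to 0.264% in progenitor pairs. No mitosis gene differed by 1.5-fold in a progenitor pair. Marker RNAs of other cell types also differed between the 2 DC arrays. In this pair 38.8% of the 10554 genes at or above the array median on either array had a KO minus WT difference above 0. Of 5 macrophage markers 4 were lower (mean 10.57 in WT and 10.09 in KO DC), and Adgre1 was not (12.33 and 12.39). Of 12 red pulp macrophage genes, chosen after the values were seen, 10 were lower (10.35 and 9.77), and of 12 red cell precursor genes chosen in the same way 10 were lower (8.19 and 7.74), with the heme enzyme Alas2 at 8.81 and 7.91 and the anion exchanger Slc4a1 at 9.41 and 8.47. Of the 5 erythroid progenitor markers, Gata1 (6.998 and 7.338) and Klf1 (7.16 and 6.84) lay below the array medians and Epor (7.70 and 7.72), Eng (8.30 and 8.51) and Tfrc (9.65 and 9.95) above them, with 1 of the 5, Klf1, lower in KO DC. Below the medians lay also the granulocyte genes Mpo (7.03 and 7.15), Elane (7.17 and 7.14), Ly6g (5.715 and 5.836) and S100a8 (7.057 and 6.482). Of these 4 genes 2 were lower in KO DC. Of 3 B cell markers measured 1 was lower, Cd79a (7.518 and 6.825, below the medians), while Ms4a1 was higher (8.573 and 9.548). Of 3 plasmacytoid DC markers 2 were lower, while Siglech was higher (8.233 and 8.519). The classical DC list averaged 12.25 and 12.02, and it holds Zbtb46 itself (9.67 and 8.02). Of its 6 genes 2 were lower in KO DC, and its median KO minus WT difference was 0.025. The CD4+ subset list averaged 11.68 and 11.59, with 4 of 4 lower and a median difference of -0.077. The part of these shifts in the mitosis result was not tested.

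Across the 47 genes the rise over the erythroid stages had a Pearson r of 0.06 with the KO minus WT difference in DC, from separate arrays. The WT DC level had an r of 0.16 with it, and both use the WT DC array. The DC minus progenitor difference had an r of 0.59 with it, and both use the KO DC array. These are descriptions across genes, which are not replicates.

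Genes of the same processes outside the set were read for comparison, in 7 lists with 117 genes measured. The lists were chosen by function, also with earlier results of these data known. Over the span 87 rose and 14 fell, with a median of 0.42, where 41.5% of all genes were higher and 35.1% lower. In DC 115 were lower, with a median of -1.95, where 64.6% of all genes were lower. The KO effect in DC was lower than in progenitors for 32 and higher for 0, with a median of -0.30. Some of the 117 genes lay below the array median in both DC arrays and entered this test through their progenitor values. Of all genes 3.01% were lower and 1.56% higher in that test. Between genotypes in progenitors 0 were called, where 0.14% of all genes were called for KO and 0.0374% for Het. The lists differed. Of 31 other centromere and kinetochore genes 27 rose over the span (median 0.67), from the centromere-binding Cenpb at -0.41 to Cenph, of the inner kinetochore, at 1.65. Of 13 other entry kinases, phosphatases and cyclins 10 rose and 1 fell, from the phosphatase Cdc25b at -1.25 to the centrosomal kinase Nek2 at 1.28. Of 22 other motor, spindle and cytokinesis genes 17 rose and 3 fell. Among them Pbk, a mitotic kinase, was highest at 1.18, and Cep55, which acts in the final abscission, fell by 2.19, most of it at the later step (-1.78). Cohesin genes were mixed and near the shares of all genes, with 8 of 15 higher and 5 lower, from the loader Mau2 at -0.50 to the centromere guardian Sgo1 at 0.99.

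Among 18 genes of the anaphase-promoting complex and its regulators 13 rose and 1 fell (median 0.26), from Fzr1, the activator of late mitosis, at -0.31 to the subunit Anapc15 at 0.82. Of 6 further chromosome structure genes, 2 of them condensin II subunits, 4 rose, from Top2b at 0.03, which did not pass, to Ncaph2 at 0.48. Of 12 transcription factors of the program 8 rose and 2 fell, from the NF-Y subunit Nfya at -0.92 to E2f4 at 1.23. In the KO comparison the other motor, spindle and cytokinesis genes had 12 of 22 lower in DC, other kinetochore genes 9 of 31, entry kinases 4 of 13, cohesin 4 of 15, transcription factors 2 of 12, the anaphase-promoting complex 1 of 18 and further chromosome structure genes 0 of 6, with 0 higher in each. Of all genes 3.01% were lower there, so the last 2 lists were near that share. The array median was reached on at least 1 DC array by 16 of 22 motor, spindle and cytokinesis genes and 19 of 31 kinetochore genes. It was reached by 10 of 13 entry kinases, 14 of 15 cohesin genes and 11 of 12 transcription factors. The other genes of these lists entered the test through their progenitor values. How many of them were called was not counted, so some calls may rest on DC values below the median. DNA replication genes moved with the set. Of 40 tested 39 rose over the span (median 0.69, 41.5% of all genes) and 40 were lower in DC (64.6% of all genes). A lower KO effect in DC was called for 19 (median -0.47, 3.01% of all genes), with a median KO minus WT difference in DC of -0.45. The array median was reached on at least 1 DC array by 36 of the 40, and how many of the 19 were among these was not counted.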

How the data were processed

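RNA of 11 sorted cell samples was read on Affymetrix arrays. Per the submitters' processing notes, the authors summarised probe sets with RMA (version not stated), and the deposited intensity values are linear, as their range shows. Their log2 was used without further scaling. Of 29674 probe sets 21780 had 1 symbol, 1618 several and 6276 none in the annotation used, and only the first kind was named. Genes that reached the array median on 2 or more arrays of a fit were tested with limma 3.58.1 in R 4.3.3, two-sided, with Benjamini-Hochberg adjustment over all genes tested, and called under 0.05. The 9 progenitor arrays were fitted with stage plus genotype (4 residual degrees of freedom, median residual SD 0.0705). DC against progenitors kept genotype as a block (5 residual degrees of freedom). The KO effect in DC against progenitors was an interaction term over 11 arrays. The scripts were tested on simulated data. There the test of the KO effect in DC missed planted differences close in size to the smallest called in the set. The progenitor tests mostly found planted differences of that size. Members, lists, markers and tests were chosen with earlier results of these data known. Values in every array were given for all members. Statistics were given for the ends of each role and of each DC comparison, and of each list of other mitosis genes the genes at both ends of the span difference were named. Alternatives were other scalings, filters, probe set summaries, variance models and thresholds, and arrays left out. The number of arrays limits precision.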

Additional observations from a re-analysis of the deposited data

Results flagged for a closer look

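In 37 genes the KO minus WT difference in DC differed from that in progenitors by a test of the difference itself, a limma interaction term in which the DC pair is given the spread between progenitor arrays. The DC pair was wider than progenitor pairs (median absolute deviation 0.186 against 0.0694 to 0.147 over all genes), so the p-values may be too small. Kntc1, Ttk, Kif4 and Hmmr lay below the array median in both DC arrays. The values that follow are the KO effect in DC minus that in progenitors on the log2 scale, and all 37 are below 0. Kinases and cyclins had Ccna2 at -1.17, Ccnb2 at -0.96, Melk at -0.92, Plk1 at -0.76 and Cdk1 at -0.61. The chromosomal passenger complex had Birc5 at -0.68, Aurkb at -0.65 and Cdca8 at -0.54. Among spindle checkpoint genes the values were Bub1 at -1.05, Kntc1 at -1.03, Mad2l1 at -0.93, Ttk at -0.77 and Bub1b at -0.69. In the anaphase trigger there was Ube2c at -0.67. Kinetochore genes had Cenpe at -0.76 and Cenpf at -0.65. For kinesin motors they were Kif11 at -1.09, Kif2c at -0.81, Kif4 at -0.75, Kif15 at -0.73, Kif20a at -0.73 and Kif22 at -0.64. Spindle proteins had Hmmr at -1.04, Prc1 at -0.88, Nusap1 at -0.86, Aspm at -0.65 and Tpx2 at -0.62. In cytokinesis they were Anln at -0.97, Racgap1 at -0.69 and Ect2 at -0.63. Condensin and chromosome structure genes had Top2a at -0.85, Ncaph at -0.81, Mki67 at -0.79, Ncapg2 at -0.75, Ncapd2 at -0.65, Ncapg at -0.64 and Smc2 at -0.58. Over all 11560 genes 3.01% were called lower and 1.56% higher in the same test. The DC pair had 1 array per genotype, and macrophage and red cell precursor genes were mostly lower in KO DC too; their part in the result was not tested.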

How the results depend on the processing

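Counts of called genes stayed within 1.5 times their main value for the 8 comparisons recomputed, except that the KO effect in DC was called for 19 when only the 26 genes at or above the array median in both DC arrays entered, a filter chosen after seeing the data that leaves fewer genes. The median KO minus WT difference of the 47 genes in DC moved from -0.69 to -0.87 after quantile normalisation of the 11 arrays, with 46 of 47 below 0, and was -0.68 when only the 2 DC arrays were normalised to each other, a setting chosen after seeing the data; the cause was not tested. Leaving out 1 array gave 44 to 45 genes higher at the first step, 23 to 32 at the later step, 46 to 47 over the span, 47 lower in DC, 0 between genotypes in progenitors and 30 to 42 in the test of the KO effect.

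Some differences near 0 changed sign, and none of these passed the test before or after. After centring each array, the later step was 0.018 for Mad2l1, 0.027 for Anln and 0.001 for Ncaph. After quantile normalisation the first step of Ncapd2 was -0.011, the later step of Ect2 -0.018, and the KO effect in DC minus that in progenitors 0.066 for Cenpa and 0.026 for Smc4. Without the 3 KO arrays the later step was 0.009 for Mad2l1, 0.037 for Ncaph and -0.011 for Mki67. Leaving out 1 array at a time, the later step ran from -0.043 to 0.005 for Mad2l1, from -0.022 to 0.087 for Ttk, from -0.026 to 0.001 for Anln, from -0.048 to 0.042 for Ect2, from -0.075 to 0.025 for Ncaph and from -0.011 to 0.094 for Mki67. The KO effect in DC minus that in progenitors ran from -0.086 to 0.085 for Cenpa and from -0.058 to 0.015 for Smc4. Stages were already compared within genotypes. The labels number no replicates, so no other pairing was fitted.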
